A study of Glycine max with 32 samples.

Results

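The 200 soybean genes described here were those whose transcript abundance differed most between field rings within a group of like samples at the R5–R6 stage. They were selected on measured values: of 52872 soybean genes in the count table, 16235 had a mean of at least 10 CPM (counts scaled to a common library total) over the 16 R5–R6 libraries, and these were ranked by the variance of log2(CPM + 0.5) among the 4 libraries of each group of line and CO2 level, averaged over the 4 groups. The 200 highest were taken. Their size of variance at R5–R6 is therefore a description, and no test is given for it.

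Leaf RNA was sequenced from the tested soybean line VPZ-34A and from wild type (WT), at 600 µmol/mol CO2 (e[CO2]) and at 410 µmol/mol CO2 (a[CO2]), at the later stage R5–R6 and at the earlier stage V4–V5. VPZ-34A derives from 1 transformation event of cultivar Maverick and overexpresses the 3 Arabidopsis genes AtVDE, AtPsbS and AtZEP, which act in the relaxation of photoprotection. WT lacked them, and per the paper other promoters than those of the native genes drive them. The 8 groups were VPZ-34A at e[CO2] and at a[CO2] and WT at e[CO2] and at a[CO2], each at R5–R6 and at V4–V5, with 4 libraries per group. The sample labels call the later stage R6, and the paper calls it R5–R6. Each library came from 1 of 8 rings of a free-air enrichment field: rings 3, 5, 6 and 8 were at e[CO2], rings 1, 2, 4 and 7 at a[CO2], and both lines stood in every ring.

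A free-air CO2 ring is an open field plot in which gas is released around the crop, so plants meet the soil, water, pests and weather of their own ground. Ring is the unit to which CO2 was applied, and variation between rings at 1 CO2 level is the error against which a CO2 effect is judged. Leaf transcript pools respond within hours to light and temperature, over days to supply of water, nitrogen and phosphate, and with the sink demand of filling pods. Transporters of sugar phosphates, enzymes that replace phospholipids and repressors of hormone signalling are well-known examples of leaf transcripts with a wide range.

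Library totals ran between 16091207 and 63132399 counts, so that a floor of 3 counts corresponded to 0.0475 to 0.186 CPM. Totals were uneven among rings at R5–R6: the VPZ-34A libraries of rings 4 and 7 held 63132399 and 39938182 counts, the WT library of ring 4 held 43341836, and the other 13 lay between 16091207 and 24556102. The 3 transgenes were at 58.4 CPM or more in every VPZ-34A library, against at most 0.994 CPM in WT libraries. The soybean PsbS genes Glyma.04G249700 and Glyma.06G113200, a photosystem II protein of green tissue, together gave 2833 to 5853 CPM in all 32 libraries. No gene matched the list of leaf markers by annotation, so the PsbS pair is the check of tissue here.

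The highest variance was 16.95 in squared log2 units, a standard deviation (SD) of 4.12, for Glyma.07G014500. The median of the 200 genes was 1.69 (SD 1.30), beside 0.0650 (SD 0.255) over all 16235 genes ranked. The last genes inside were Glyma.13G206700 at 1.11, Glyma.02G083500 at 1.10 and Glyma.11G150400 at 1.09. The first genes outside were Glyma.16G043200 at 1.09, Glyma.18G228700 at 1.09 and Glyma.18G061100 at 1.08. The border therefore falls in a continuum. The 200 genes were not of unusual abundance: their mean CPM at R5–R6 had a median of 27.3, against 26.3 over all genes ranked, and ran between 10.0 and 848 CPM.

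Ring 7, at a[CO2], carried the largest part of this variance. Of the sum of squared deviations of the 200 genes from their group means, ring 7 held 27.7%, where an equal share would be 12.5%. Ring 4 held 15.1%, ring 8 held 15.02%, ring 3 held 11.4%, ring 1 held 11.3%, ring 2 held 7.01%, ring 5 held 6.45% and ring 6 held 5.94%. Within ring 7 the VPZ-34A library alone held 20.9% and the WT library 6.79%. Ring 7 led over all 16235 genes ranked too, with 24.2% of the summed squares.

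**Figure D1:**
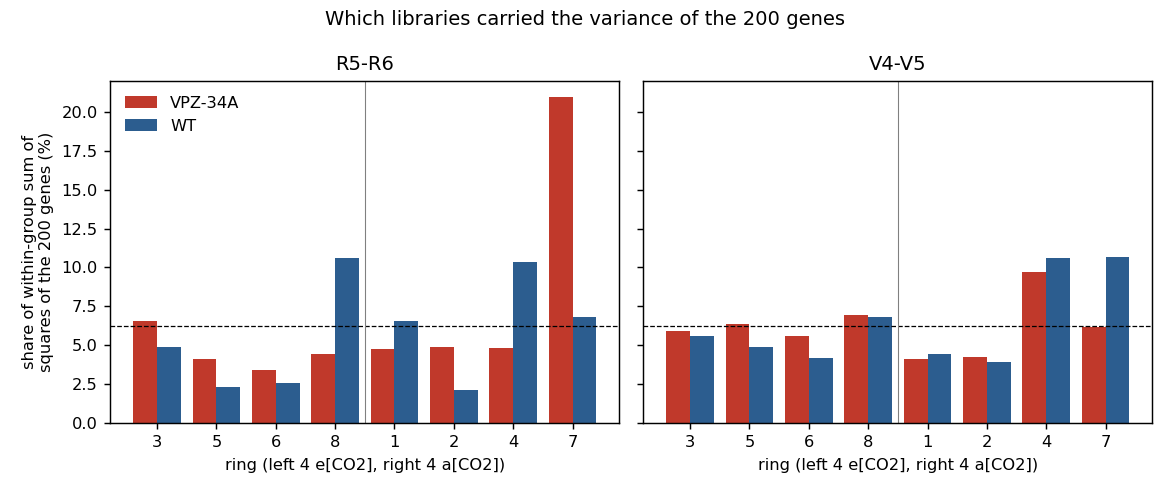
Share of the within-group sum of squares of the 200 genes (%) in each library of VPZ-34A (red) and WT (blue), by ring, at R5–R6 (left) and V4–V5 (right). The dashed line is the equal share of 6.25%. VPZ-34A in ring 7 reached 20.9% at R5–R6, and the libraries of ring 4 and the WT library of ring 7 were highest at V4–V5.

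More of the 200 genes than not were high in ring 7 and low in ring 4. As each library is a mix of leaf cells, fewer cells of a type and less RNA per cell cannot be told apart. The median deviation from the group mean was 1.62 for VPZ-34A and 0.98 for WT in ring 7, and -0.67 for VPZ-34A and -0.70 for WT in ring 4, on the log2(CPM + 0.5) scale. Averaged over the lines, 129 genes were above their group mean in ring 7 and below it in ring 4. Ring 7 was the ring farthest from the group mean for 99 genes, 85 of them above it. Ring 4 was farthest for 33 genes, 24 of them below. Ring 1 was farthest for 24 genes, ring 8 for 23, ring 3 for 14 and ring 5 for 7, and rings 2 and 6 for 0. These counts rest on the values used for the selection and are not given for all genes ranked. They are therefore not read as a trait of the 200 genes. In no more than 5 genes did 1 library hold over 50% of the squares.

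**Figure D2:**
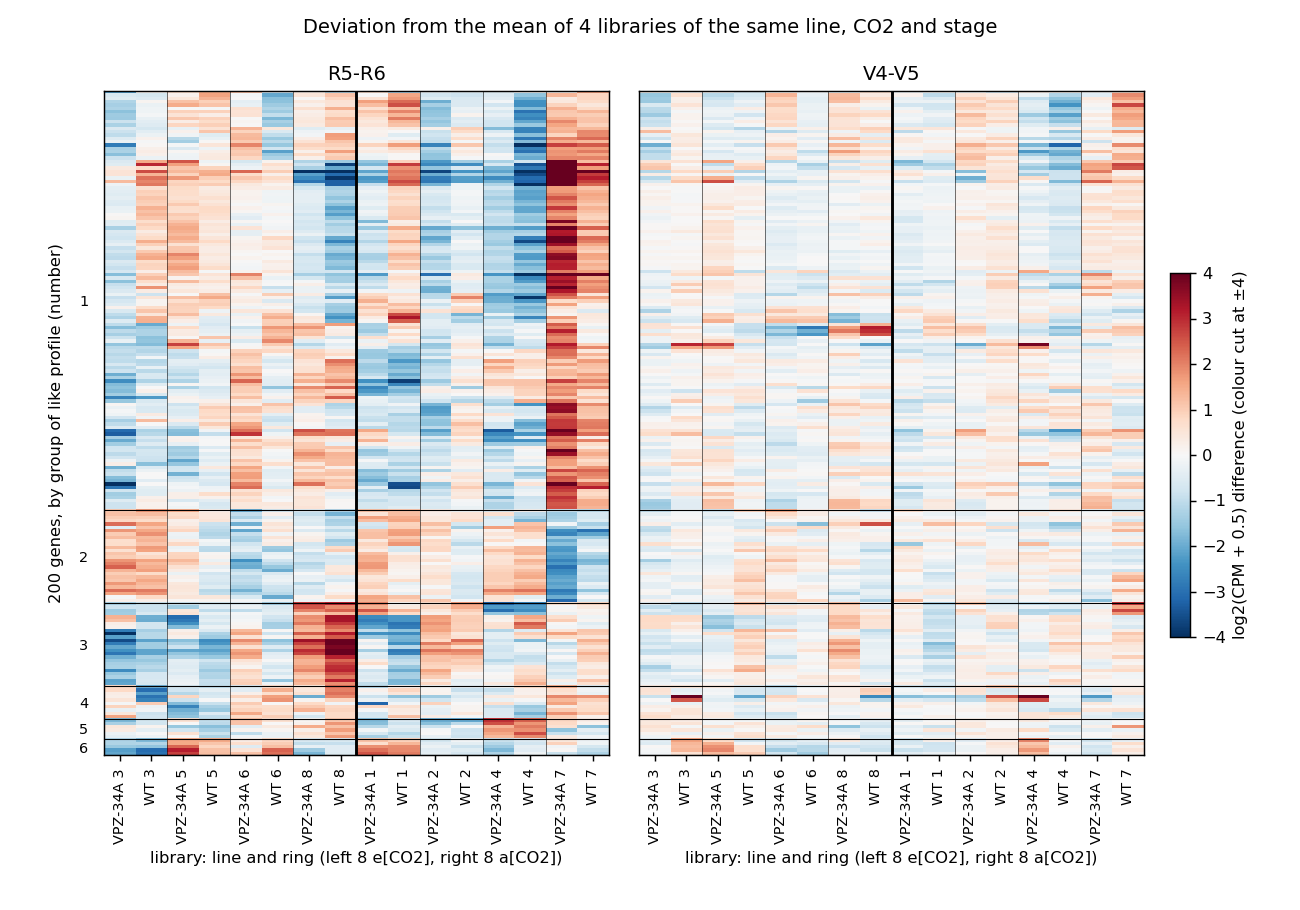
Deviation of each of the 200 genes (rows) from the mean of the 4 libraries of the same line, CO2 level and stage, in log2(CPM + 0.5), at R5–R6 (left) and V4–V5 (right). Columns are libraries, with VPZ-34A beside WT of the same ring, and numbers at the left are 6 groups of genes of like profile at R5–R6. Group 1 is red in both libraries of ring 7, group 2 blue there, and group 3 red in both libraries of ring 8.

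The gene of rank 1, Glyma.07G014500, shows how wide the range was. In VPZ-34A at R5–R6 it gave 47.1, 79.2, 158 and 1.30 CPM in rings 3, 5, 6 and 8 at e[CO2], and 1.83, 0.283, 1.82 and 2379.7 CPM in rings 1, 2, 4 and 7 at a[CO2]. In WT at R5–R6 it gave 289.9, 126, 92.7 and 1.0 CPM in rings 3, 5, 6 and 8, and 78.4, 3.12, 0.138 and 635 CPM in rings 1, 2, 4 and 7. Both lines were thus near zero in ring 8, high in the other rings at e[CO2] and highest in ring 7, while only WT was high in ring 1. At V4–V5 no library fell below 27.0 CPM, and the highest was VPZ-34A in ring 7 with 534 CPM. The files and the table of homologues give this gene no name, which holds for 174 of the 200 genes.

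Glyma.14G085600, rank 8, had the same profile around a falling level. At R5–R6 VPZ-34A gave 7.70, 9.91, 8.79 and 0.733 CPM in rings 3, 5, 6 and 8 and 0.411, 0.0567, 0.238 and 59.0 CPM in rings 1, 2, 4 and 7. WT gave 16.3, 18.0, 6.96 and 0.278 CPM in rings 3, 5, 6 and 8 and 22.9, 2.13, 0 and 41.0 CPM in rings 1, 2, 4 and 7. At V4–V5 all 16 libraries held 38.8 to 227 CPM, and ring 4 was the lowest ring in both lines with 38.8 CPM in VPZ-34A and 67.7 CPM in WT. The genes of rank 2, 3 and 4, Glyma.08G200100, Glyma.01G142400 and Glyma.02G156800, likewise peaked in VPZ-34A of ring 7 at R5–R6, with 655, 1094 and 511 CPM, while the other a[CO2] libraries of VPZ-34A were all below 1 CPM. In WT of ring 7 the same 3 genes gave 39.8, 357 and 34.7 CPM.

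**Figure D3:**
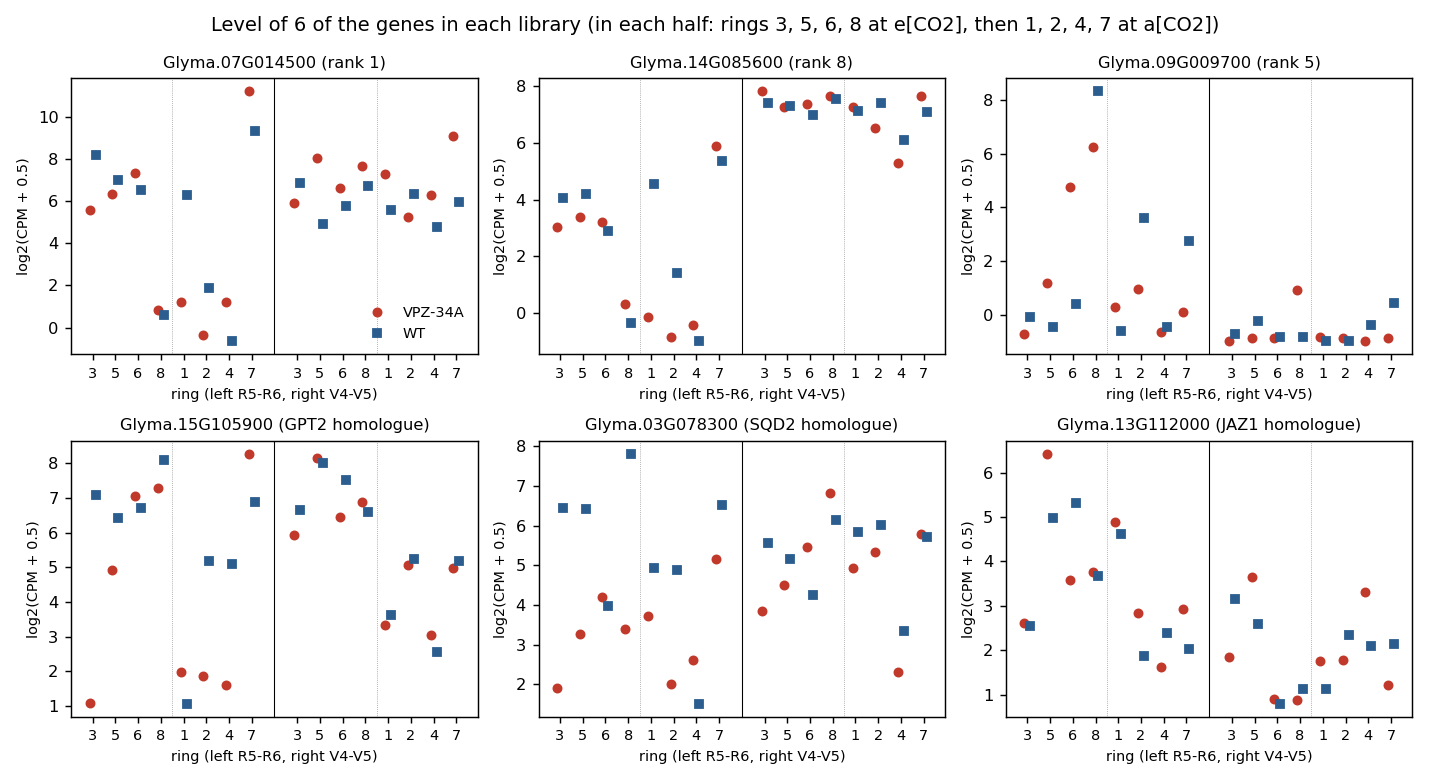
Level of 6 of the genes in every library, as log2(CPM + 0.5), with VPZ-34A as red circles and WT as blue squares, by ring, at R5–R6 at the left and V4–V5 at the right of each panel. Glyma.07G014500 and Glyma.14G085600 were near zero in both lines of ring 8 and highest in ring 7 at R5–R6, and Glyma.09G009700 was highest in ring 8.

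By the profile of their 16 deviations at R5–R6 the 200 genes fell into 6 groups (average linkage on 1 minus Pearson's r, cut at 0.7). The groups were made after seeing the data and were not tested. Group 1, with 126 genes, was above its group mean in ring 7 in 125 of the 126 genes, by a mean of 2.50 in VPZ-34A and 1.38 in WT, and averaged over the lines its lowest ring was ring 4, with -0.87 in VPZ-34A and -1.38 in WT. Group 2, with 28 genes, was the reverse for ring 7: the mean deviation there was -2.05 in VPZ-34A and -0.99 in WT, and ring 3 was highest with 1.18 in VPZ-34A and 1.29 in WT. A gene of group 2 is Glyma.07G258100, whose closest Arabidopsis gene is AT5G19190. At R5–R6 it gave 35.8, 17.5, 1.92 and 3.46 CPM in rings 3, 5, 6 and 8 and 60.3, 18.4, 27.1 and 3.33 CPM in rings 1, 2, 4 and 7 in VPZ-34A. WT gave 9.97, 4.87, 1.55 and 2.28 CPM in rings 3, 5, 6 and 8 and 11.99, 11.5, 22.3 and 2.49 CPM in rings 1, 2, 4 and 7. In both lines its level in ring 7 was the lowest of the 4 rings at a[CO2].

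Group 3, with 25 genes, was high in ring 8, an e[CO2] ring, by a mean of 1.90 in VPZ-34A and 3.06 in WT, with all 25 genes above their group mean there. Its gene of highest rank, Glyma.09G009700, gave 0.106, 1.79, 26.6 and 75.7 CPM in rings 3, 5, 6 and 8 in VPZ-34A and 0.441, 0.221, 0.808 and 323 CPM in those rings in WT at R5–R6. In the rings at a[CO2] it gave 0.143 to 1.45 CPM in VPZ-34A and 0.150 to 11.5 CPM in WT. At V4–V5 no library exceeded 1.39 CPM. Ring 8 thus stood above the other rings in both lines at R5–R6. Glyma.19G008700, annotated as a zinc-binding dehydrogenase oxidoreductase, gave 23.8, 105, 270.1 and 540.2 CPM in rings 3, 5, 6 and 8 in VPZ-34A and 56.6, 50.2, 115 and 1148 CPM in those rings in WT. Groups 4, 5 and 6 had 10, 6 and 5 genes. Group 5 was highest in ring 4, by 1.91 in VPZ-34A and 2.10 in WT, and group 6, averaged over the lines, in ring 5 among the e[CO2] rings (2.24 in VPZ-34A and 1.18 in WT) and in ring 1 among the a[CO2] rings (1.68 in VPZ-34A and 1.63 in WT).

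Names were at hand for 26 of the 200 genes, through Arabidopsis homologues in a table of the paper that covers 752 genes. That table lists genes the study called on these same libraries, so the 26 named genes are not a random draw: 13% of the 200 genes have a name there, against 1.52% of the genes ranked. Counts of named genes by function are a description of that table, and 19 of the 26 belonged to group 1.

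Glyma.15G105900 and Glyma.13G206700, both among the 200, were annotated as homologues of GPT2. This plastid transporter exchanges glucose 6-phosphate for phosphate, and its transcript rises in Arabidopsis leaves rich in sugar. Whether soybean has further homologues was not examined. At R5–R6 Glyma.15G105900, rank 9, gave 1.64, 29.7, 133 and 155 CPM in rings 3, 5, 6 and 8 and 3.43, 3.15, 2.56 and 309.9 CPM in rings 1, 2, 4 and 7 in VPZ-34A. WT gave 137, 85.3, 105 and 273 CPM in rings 3, 5, 6 and 8 and 1.58, 36.1, 33.7 and 117 CPM in rings 1, 2, 4 and 7. Ring 7 was highest among the a[CO2] rings and ring 8 among the e[CO2] rings in both lines, whereas in ring 3 the lines were far apart. The other homologue, Glyma.13G206700, gave 30.5, 84.1, 106 and 127 CPM in rings 3, 5, 6 and 8 and 58.9, 25.7, 8.32 and 169 CPM in rings 1, 2, 4 and 7 in VPZ-34A. In WT this copy ran between 86.1 and 176 CPM at e[CO2] and between 25.1 and 44.6 CPM at a[CO2], and ring 7 was highest among the a[CO2] rings there too. Non-whole counts occurred for Glyma.15G105900 and Glyma.13G206700 in 17 and 18 of the 32 libraries, so some of their reads were shared with other loci by the fractional counting, and with which loci was not tested.

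Another sugar gene was Glyma.06G167000, rank 21, annotated as a nodulin MtN3 family protein, a family known as SWEET sugar exporters. It gave 0.264, 5.00, 27.0 and 9.22 CPM in rings 3, 5, 6 and 8 and 0.822, 0.227, 0.166 and 13.2 CPM in rings 1, 2, 4 and 7 in VPZ-34A at R5–R6. WT gave 20.2, 23.2, 17.3 and 61.8 CPM in rings 3, 5, 6 and 8 and 0, 11.8, 3.61 and 52.4 CPM in rings 1, 2, 4 and 7. It entered the list of nodule markers by its name only, and was the 1 gene of that list among the 200, of 7 annotated and 2 ranked. None of the seed storage or flower and pollen markers was among the 200, of 1 ranked in each list.

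Genes of phosphate supply were high in ring 7 and low in ring 4. The list held 6 annotated genes, all 6 were ranked, and 3 were among the 200: Glyma.03G078300, a homologue of SQD2, which makes the sulfolipid that replaces phospholipid in membranes when phosphate is short, and Glyma.17G108700 and Glyma.13G162600, homologues of MGD2, which makes galactolipid for the same exchange. The other 3, homologues of the phosphate sensor gene SPX2, of SQD2 and of the purple acid phosphatase gene PAP17, stood at ranks 244, 321 and 368. All 6 were above their group mean in ring 7 and below it in ring 4, at R5–R6 and again at V4–V5, averaged over the lines. This profile was common in the 200 genes and not particular to phosphate genes: 129 had it at R5–R6 and 84 at both stages. At V4–V5 alone 99 had it, beside 23.7% of all genes ranked. The 6 genes are also drawn from those the study listed on these same libraries. At R5–R6 the mean deviation in ring 7 ran between 0.71 and 1.93 and in ring 4 between -1.87 and -0.44. At V4–V5 it ran between 0.38 and 1.18 in ring 7 and between -2.08 and -0.55 in ring 4.

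At R5–R6 Glyma.03G078300 gave 3.27, 9.09, 17.8 and 9.96 CPM in rings 3, 5, 6 and 8 and 12.7, 3.54, 5.56 and 35.3 CPM in rings 1, 2, 4 and 7 in VPZ-34A. WT gave 87.1, 84.8, 15.3 and 224 CPM in rings 3, 5, 6 and 8 and 30.1, 28.7, 2.33 and 91.3 CPM in rings 1, 2, 4 and 7. VPZ-34A was below WT in 6 of the 8 rings, and the values of the lines overlapped. For the 6 phosphate genes VPZ-34A was lower than WT in 6 to 8 of the 8 rings at R5–R6 and in 4 or 5 at V4–V5. The log2 fold change of VPZ-34A over WT at R5–R6 ran between -2.34 and -0.92, and no gene of the 6 passed the test of edgeR (lowest adjusted p = 0.461). Because the study listed these genes on the same libraries, their common direction is not independent evidence. Phospholipase D zeta 1, a lipase of phospholipid turnover (Glyma.20G238000, rank 114), and a pair of phosphatase genes (Glyma.07G011900 and Glyma.07G011800, ranks 121 and 163) were further members with annotation to lipid or phosphate cleavage.

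Single genes stood for other functions. The JAZ1 homologue Glyma.13G112000, a repressor of jasmonate signalling, belonged to group 6 and gave 5.62, 85.4, 11.5 and 12.99 CPM in rings 3, 5, 6 and 8 and 29.2, 6.69, 2.60 and 7.11 CPM in rings 1, 2, 4 and 7 in VPZ-34A at R5–R6. WT gave 5.34, 31.2, 39.4 and 12.2 CPM in rings 3, 5, 6 and 8 and 24.2, 3.17, 4.73 and 3.60 CPM in rings 1, 2, 4 and 7. Ring 1 was thus highest among the a[CO2] rings in both lines and ring 3 lowest among the e[CO2] rings. The homologue of haemoglobin 1 Glyma.11G121700, a non-symbiotic haemoglobin of nitric oxide and low-oxygen metabolism, had 94.9% of its variance shared between the lines. In VPZ-34A it gave 5.80, 1.499, 13.9 and 19.8 CPM in rings 3, 5, 6 and 8 and 18.1, 14.7, 12.4 and 39.7 CPM in rings 1, 2, 4 and 7. In WT it gave 9.70, 3.43, 18.9 and 20.7 CPM in rings 3, 5, 6 and 8 and 28.3, 23.2, 8.40 and 36.4 CPM in rings 1, 2, 4 and 7. Homologues of the abscisic acid-induced phosphatase gene HAI3, the nitrate transporter gene NRT1:2, the glutathione transferase genes GSTU8 and GSTU19 and the glycolytic gene GAPC1 were also members, at ranks 90, 136, 139, 162 and 183. No member carried an annotation to heat shock, light harvesting, the clock, senescence, pathogen defence, flavonoids, metals, starch or cell cycle, of 1, 3, 0, 0, 3, 0, 3, 1 and 2 such genes ranked.

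VPZ-34A and WT of a ring agreed in most rings at R5–R6, but not in all. The part of within-group variance that the 2 lines of a ring shared had a median of 81.0% over the 200 genes, with quartiles of 72.0% and 85.5%, beside 69.3% over all genes ranked. It would be 50% if the lines of a ring varied independently. It was above 50% in 195 of the 200 genes. This rests on the same libraries as the selection and is a description. The largest disagreement was in Glyma.04G054400, where the shared part was 39.6%.

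By ring, the deviations of VPZ-34A and WT had the same sign in 172 of 200 genes in ring 7, 173 in ring 4 and 170 in ring 8. The count was 148 in ring 5, 132 in ring 1, 123 in ring 3, 120 in ring 2 and 93 in ring 6. Over all genes ranked the sign was the same for 69.2% in ring 7, 73.5% in ring 4, 66.5% in ring 8 and 70.6% in ring 1, and for 50.02% to 63.8% in the other rings. Across the 200 genes Pearson's r between the deviations of VPZ-34A and WT was 0.81 in rings 7 and 8, 0.72 in ring 4, 0.57 in ring 5, 0.47 in ring 3, 0.43 in ring 1, 0.36 in ring 2 and -0.01 in ring 6. The genes are not independent of each other, and the deviations of the 4 rings of a group sum to zero, so these values carry no p. Within the 200 genes the 3 rings of largest share, 7, 4 and 8, were those in which the lines were most alike. Over all genes ranked the order differed: r was 0.67 in rings 4 and 7, 0.56 in ring 1, 0.54 in ring 8 and 0.01 in ring 6. All 8 rings had the same sign in both lines for 9 genes, and 6 or more rings for 112. With ring 7 left out, the median shared part of the 200 genes was 73.4%. The edgeR test of ring differences, with the disagreement of the lines as its error, called 117 of the 200 genes at R5–R6 beside 6% of the 33200 genes tested, and since the genes were chosen on these libraries nothing is read from this count.

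At V4–V5, in libraries the selection did not use, the 200 genes varied less than at R5–R6 but more than other genes. Their within-group variance had a median of 0.367 (SD 0.606), beside 0.0476 (SD 0.218) over all genes ranked. It was above the median of all genes ranked in 196 of the 200 genes and above their 95th percentile in 120. The variance was higher at V4–V5 than at R5–R6 in 7 genes. The ratio of V4–V5 to R5–R6 variance had a median of 0.168 in the 200 genes and 0.744 in all genes ranked, and a lower value in the 200 genes is partly built in, because they were picked for a high value at R5–R6. Of the 200 genes 125 also had a mean of at least 10 CPM at V4–V5, and their median variance was 0.294 beside 0.0445 for the 13277 genes ranked that had it. Among those 13277 genes, 56 of the 200 of highest variance at V4–V5, or 28.0%, were among the 200 chosen at R5–R6.

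**Figure D4:**
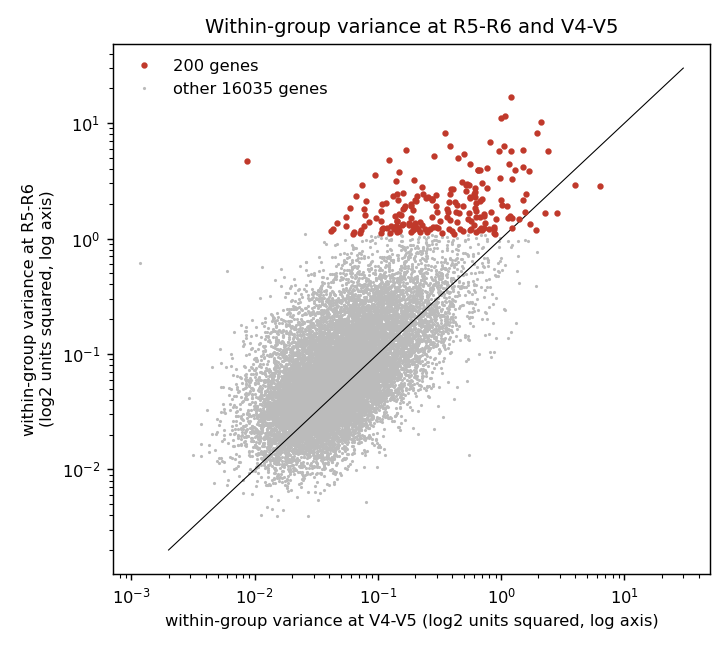
Within-group variance of log2(CPM + 0.5) at R5–R6 (vertical) and V4–V5 (horizontal), both on log axes, for the 200 genes (red) and the other genes ranked (grey), with the line of equality. The red points lie above 1.09 by choice on the vertical axis, and 193 of them lie above the line. The lone red point at the left is Glyma.05G126800, which was near zero in every V4–V5 library.

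Rings 4 and 7 again carried most at V4–V5, with 20.3% and 16.8% of the squares of the 200 genes, followed by ring 8 with 13.7%. Over all genes ranked ring 7 held 18.6%, ring 8 held 14.2%, ring 5 held 14.01% and ring 4 held 13.7%, so that the share of ring 4 was larger in the 200 genes and that of ring 7 was not. Averaged over the lines, 99 of the 200 genes were above their group mean in ring 7 and below it in ring 4 at V4–V5, beside 23.7% of all genes ranked. Of the 129 that were so at R5–R6, 84 were so at V4–V5 too. This second share is not given for all genes ranked, so it is not read as a trait of the 200 genes. Across the 200 genes the deviation of a ring at R5–R6 and at V4–V5 had r = 0.42 in ring 4, 0.41 in ring 7, 0.25 in ring 8, 0.22 in ring 5 and 0.18 in ring 1, and -0.05, -0.20 and -0.35 in rings 3, 2 and 6. These r between stages are not given for all genes ranked, so they are not read as a trait of the 200 genes. The lines of a ring agreed less at V4–V5, where the median shared part was 66.3% in the 200 genes and 65.4% in all genes ranked. By profile group, averaged over lines and genes, group 1 was highest in ring 7 and lowest in ring 4 at V4–V5 too, with 0.36 and -0.37. Group 3 was highest in ring 8 at both stages, with 2.48 at R5–R6 and 0.35 at V4–V5, where 20 of its 25 genes were above their group mean. Group 6 was high in ring 5 at both stages, with 1.71 at R5–R6 and 0.86 at V4–V5, whereas its ring 1 value was 1.65 at R5–R6 and -0.55 at V4–V5. Groups 2 and 5 were near zero at V4–V5 in the rings that marked them at R5–R6: group 2 had -1.52 in ring 7 at R5–R6 and -0.05 at V4–V5, and group 5 had 2.01 in ring 4 at R5–R6 and -0.12 at V4–V5. Group 4 had 0.85 in ring 7 at R5–R6 and -0.27 at V4–V5.

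The ring test at V4–V5 compared all 8 rings within CO2 levels, with the lines as replicates. Both libraries of a ring come from neighbouring plots on the same ground, so the p-values measure the spread between these libraries only. Of the 195 members that passed the count filter 3 passed at an adjusted p of 0.05, beside 0.0237% of 33689 genes tested, which is 8 genes. They were Glyma.13G347700 (adjusted p = 0.0262, edgeR quasi-likelihood test), the GPT2 homologue Glyma.15G105900 (adjusted p = 0.0373) and Glyma.07G006900 (adjusted p = 0.0469). Unadjusted p was under 0.05 in 108 of the 195 members, against 16.8% of all genes tested. DESeq2 called 93 members and edgeR without the count filter 27. No member passed without ring 1, ring 4, ring 7 or ring 8, or with a term for line by CO2, and 1 passed without ring 5 or ring 6.

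Since ring 7 carried most at R5–R6, it was compared with rings 1, 2 and 4 at V4–V5, a comparison added after seeing the data. In ring 7, 21 members were higher and 1 was lower, beside 0.834% of all 33689 genes higher and 0.151% lower. Among the 16214 genes ranked that were tested, 1.46% were higher and 0.123% lower. All 22 had the same direction of ring 7 at R5–R6, and 20 were of group 1. Over all 195 members tested the direction was the same in 137, namely in 115 of the 154 that were high in ring 7 at R5–R6 and in 22 of the 41 that were low. The share with the same direction is not given for all genes ranked, so it is not read as a trait of the members. The count of 22 members called rests on single rings: it was 0 without ring 1 or without ring 4, 43 without ring 2, 13 without ring 6 or without ring 8, and it was 10 by limma-voom and 49 by DESeq2. The VPZ-34A library of ring 7 was deep at both stages, with 39938182 counts at R5–R6 and 45874720 at V4–V5, and the part of depth in these results was not tested.

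**Figure D5:**
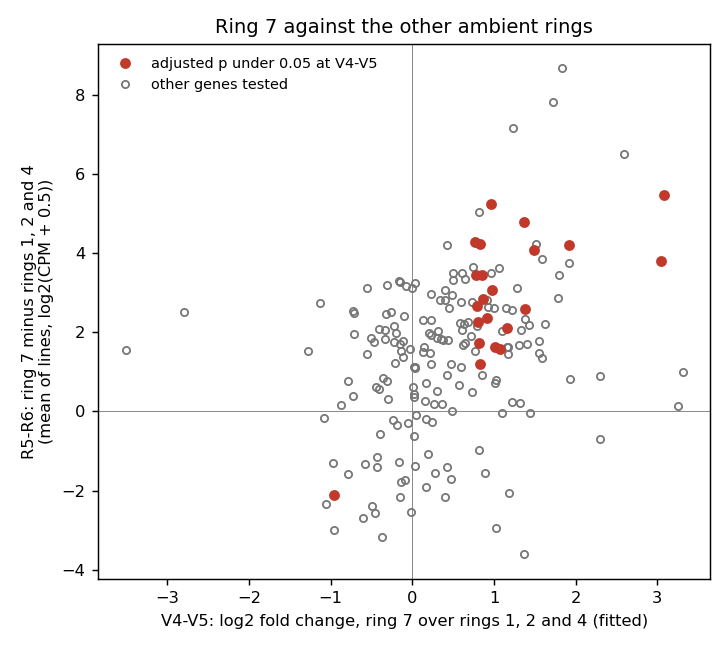
Ring 7 against rings 1, 2 and 4 for the 195 members tested: fitted log2 fold change at V4–V5 (horizontal) and difference of ring means at R5–R6 in log2(CPM + 0.5) (vertical). Filled red points passed at an adjusted p of 0.05 at V4–V5, 21 of them higher in ring 7 and 1 lower, and all 22 lie on the same side of zero at both stages.

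Glyma.13G347700 had the lowest p in both V4–V5 tests. At V4–V5 it gave 291, 453, 239 and 611 CPM in rings 1, 2, 4 and 7 in VPZ-34A, and 323, 417, 200.002 and 697 CPM in those rings in WT. The order of the 4 rings was the same in both lines, and ring 7 was 1.16 ± 0.12 (SE) higher on the log2 scale than the mean of the other 3 (adjusted p = 0.0115, edgeR, 2 libraries against 6). At R5–R6 ring 7 was again highest and ring 4 lowest of these rings, with 229, 147, 124 and 998 CPM in VPZ-34A and 635, 296, 74.2 and 725 CPM in WT. This gene and its neighbour Glyma.13G347800 had non-whole counts in 32 and 31 libraries, so their reads were shared with other loci and their identity is uncertain. Glyma.07G006900, rank 10, gave 344, 409, 248 and 536 CPM in rings 1, 2, 4 and 7 in VPZ-34A, and 353, 449, 220.0 and 569.6 CPM in those rings in WT at V4–V5. Its log2 difference of ring 7 was 0.83 ± 0.11 (SE). The haemoglobin 1 homologue Glyma.11G121700 was also higher in ring 7 at V4–V5, by 0.83 ± 0.14 (SE, adjusted p = 0.0299, edgeR), with 27.9, 32.4, 18.0 and 40.9 CPM in rings 1, 2, 4 and 7 in VPZ-34A and 22.5, 32.3, 10.96 and 35.7 CPM in those rings in WT. In these genes rings 4 and 7 were the extremes in both lines.

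Line and CO2 level were then tested for the members. The spread within groups, by which the genes were chosen, is the error term of these tests at R5–R6. No member differed between VPZ-34A and WT at R5–R6 in edgeR, beside 0.0904% of 33200 genes, and 15 of 200 had an unadjusted p under 0.05, beside 7.51% of all genes, which is no more than that background. DESeq2 called 1, limma-voom 0 and the fit with the ring as a block 0. The lowest adjusted p was 0.337, for the GSTU19 homologue Glyma.08G175200, a glutathione transferase. This gene gave 2.66, 5.29, 14.8 and 5.42 CPM in rings 3, 5, 6 and 8 and 3.09, 1.34, 2.29 and 5.27 CPM in rings 1, 2, 4 and 7 in VPZ-34A, and 24.9, 20.8, 14.5 and 93.9 CPM and 5.37, 9.03, 2.08 and 29.99 CPM in those rings in WT. The values of the lines overlapped. At V4–V5, in a fit added after seeing the data, 0 members differed between the lines, beside 0.0653% of genes, with 9 of 195 at an unadjusted p under 0.05 beside 3.42% of all genes, and 0 by DESeq2 and by limma-voom.

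The count of members called for CO2 at R5–R6 differed with and without ring 7. With all rings, 0 members and 0% of 33200 genes differed between e[CO2] and a[CO2] in edgeR, with 26 of 200 members at an unadjusted p under 0.05 beside 13.5% of all genes, 3 members by DESeq2 and 0 by limma-voom. Without ring 7, 17 members were higher at e[CO2] and 0 lower, beside 1.03% of genes higher, and without ring 3 the count was 1. Nothing is read from the 17: the genes were chosen on the spread at R5–R6, 157 of the 200 were above the other a[CO2] rings in ring 7, and leaving that ring out lowers both the a[CO2] mean and the error. The GSTU8 homologue Glyma.07G139700, a glutathione transferase, gave 114, 43.5, 92.1 and 84.6 CPM in rings 3, 5, 6 and 8 and 15.5, 10.4, 15.3 and 46.3 CPM in rings 1, 2, 4 and 7 in VPZ-34A. In WT it gave 9.67, 62.9, 224 and 117 CPM in rings 3, 5, 6 and 8 and 18.3, 23.5, 27.9 and 56.7 CPM in rings 1, 2, 4 and 7. Ring 7 was the highest of the a[CO2] rings in both lines, and leaving it out was 1 of 8 such runs.

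At V4–V5, in a fit added after seeing the data, 5 members were higher at e[CO2] and 0 lower, beside 0.142% of 33689 genes higher. The GPT2 homologue Glyma.15G105900 gave 60.3, 286, 86.4 and 118 CPM in rings 3, 5, 6 and 8 at e[CO2] and 9.62, 33.2, 7.83 and 31.2 CPM in rings 1, 2, 4 and 7 at a[CO2] in VPZ-34A. WT gave 99.2, 258, 184 and 95.8 CPM in rings 3, 5, 6 and 8 and 11.9, 37.3, 5.38 and 35.9 CPM in rings 1, 2, 4 and 7. Every e[CO2] library was above every a[CO2] library, by a log2 fold change of 2.66 ± 0.45 (SE, adjusted p = 0.0169, edgeR, 8 libraries each). The second GPT2 homologue Glyma.13G206700 did not overlap either, with 119.7 to 298 CPM at e[CO2] and 18.3 to 75.04 CPM at a[CO2] (1.89 ± 0.28, adjusted p = 0.00953, edgeR). The other 3 were Glyma.06G167000 of the nodulin MtN3 family (1.73 ± 0.33), Glyma.17G104600 (1.78 ± 0.32) and Glyma.03G139100 (0.89 ± 0.17). Since CO2 was applied per ring, the 2 libraries of a ring are not independent samples of it, and with the ring as a random block in limma-voom 3 members passed. No member passed without ring 1 and 1 passed without ring 4. The difference of the CO2 effect between the stages was not tested.

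Stage changed most of the members, as it did most genes. Of the 200 genes 87 were higher and 59 lower at R5–R6 than at V4–V5, beside 37.5% of 35639 genes tested higher and 37.7% lower, and beside 46.3% higher and 29.9% lower among the 16235 genes ranked, which had to be above 10 CPM at R5–R6. The share of the 200 genes called, 73.0%, was near these backgrounds. With the ring as a block 79 were higher and 78 lower, and by limma-voom 65 were higher and 78 lower, so the direction of the balance depended on the model. In edgeR 20 of 25 genes of group 3 were higher and 1 lower, 18 of 28 genes of group 2 were higher and 3 lower, and 41 of 126 genes of group 1 were higher and 49 lower. Their median levels at V4–V5 were 5.92, 6.56 and 31.7 CPM, and since a gene had to reach 10 CPM at R5–R6 only, a higher level at R5–R6 was partly built in for groups 2 and 3. Glyma.05G126800, rank 19, was at 10.3 to 771 CPM in VPZ-34A and 8.63 to 606 CPM in WT at R5–R6, against 10.5 counts in all 16 libraries together at V4–V5, where 10 of the 16 were at 0. Glyma.19G015000, a gene of group 2, gave 33.2 to 264 CPM at R5–R6 in VPZ-34A and 35.5 to 176 CPM in WT, against at most 2.27 CPM at V4–V5. Both genes were nearly silent in every V4–V5 library, and every R5–R6 library lay above every V4–V5 library.

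The members lay on all 20 chromosomes, with 20 on chromosome 8, 18 on chromosome 6 and 15 on chromosome 13. As a share of the genes ranked on a chromosome this was 1.68%, 1.84% and 1.32%, beside 1.23% over all, and the lowest share was 0.266% on chromosome 5. Direct neighbours in gene order made up 9 pairs of members, and the deviations of the 2 genes of a pair had an r of 0.79 to 0.99 over the 16 R5–R6 libraries. Of these pairs 4 had non-whole counts in at least 31 libraries of both genes. Shared reads were not the rule in the 200 genes: 49 of them, or 24.5%, had non-whole counts in over 16 of the 32 libraries, against 40.2% of all genes ranked, and 32 had whole counts in every library.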

How the data were processed

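Single-end, stranded polyA RNA-seq was available for 32 soybean leaf libraries. The authors trimmed reads with Trimmomatic 0.39, aligned them with STAR 2.7.10a to the Wm82.a4.v1 genome with the 3 transgenes added, and counted with featureCounts of Subread 2.0.4. The deposited values are estimated counts, because the authors shared multi-mapping reads among loci as fractions. They were rounded to whole numbers for count models and left as deposited for CPM. CPM were computed on column totals. The authors' batch adjustment of counts is not part of the table used.

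The members and lists were chosen with earlier results of these data known. Named were the 12 members of highest variance, up to 2 members per gene list, the genes at the border, those of lowest p in each test and those the paper names. Other members were named after their values were seen, as were the 6 profile groups, the comparison of ring 7 and the V4–V5 fits of line and CO2.

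Ring, line and CO2 were tested within a stage, and stage over all 32 libraries, by the edgeR 4.0.16 quasi-likelihood test with TMM scaling and filterByExpr, the p-values being adjusted after Benjamini and Hochberg for every gene in the fit and called at 0.05. The line and CO2 models held line, CO2 and their interaction. Stage had 1 mean per group. Ring models held line and ring. The fits were repeated without the count filter, with RLE factors, with DESeq2 1.42.0, by voom in limma 3.58.1 and with each ring left out, and the choice of members with another pseudocount, scaling and CPM minimum. On simulated counts with 200 changed genes the edgeR fits recovered 89% for rings at V4–V5 and 99% for ring 7. Recovery was 98% for line and 96.5% for CO2 at R5–R6, and 99.5% for stage. Wrong calls numbered 22, 16, 8, 8 and 11 in that order. How well the fits recover effects in the measured libraries, where the lines of a ring shared variation, was not tested. R 4.3.3, Python 3.11.15, pandas 2.3.3 and SciPy 1.17.1 were used. The part of library depth in the results was not tested.

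The replicate number in the labels is the ring. Over all genes ranked, the deviations of VPZ-34A and WT of a ring had a median r of 0.474 at R5–R6 and 0.257 at V4–V5, and the labels place both lines in the ring, so that ring pairs the libraries for line and stage. Per the paper each e[CO2] plot was paired with an a[CO2] plot in 4 blocks, but which rings made a block is not given in the sources used here, so no block term entered a fit. No gene ID matched the RefSeq table, and no sequences were at hand, so none are shown.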

Additional observations from a re-analysis of the deposited data

Results flagged for a closer look

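In a group of 4 libraries, 1 library can stand far from the other 3. Over the 200 genes and 4 groups at R5–R6 this was so, by Dixon's ratio, in 79 of 800 groups or 9.88%, beside 5.73% over all genes ranked, where chance gives about 1 in 20. The genes were chosen for a wide spread, so the share is a description.

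VPZ-34A of ring 7 at a[CO2] stood far above VPZ-34A of rings 1, 2 and 4 in 7 of the genes named by rule. It gave 2379.7 CPM for Glyma.07G014500 against 0.283 to 1.83 CPM in the others. It gave 655 CPM for Glyma.08G200100 against 0 to 0.183, 1094 CPM for Glyma.01G142400 against 0.170 to 0.640, and 511 CPM for Glyma.02G156800 against 0.0567 to 0.554. It gave 59.0 CPM for Glyma.14G085600 against 0.0567 to 0.411, 309.9 CPM for the GPT2 homologue Glyma.15G105900 against 2.56 to 3.43, and 313 CPM for Glyma.07G006900 against 4.81 to 9.67. In WT of ring 7 the same genes were also highest among the a[CO2] rings, but there ring 1 or ring 2 was nearer.

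Ring 8 stood apart among the e[CO2] rings. WT of ring 8 gave 323 CPM for Glyma.09G009700 against 0.221 to 0.808 CPM in the other 3 rings, 159 CPM for Glyma.18G172800 against 0.304 to 0.994, and 88.7 CPM for Glyma.17G043000, annotated to the major facilitator superfamily, against 22.7 to 28.4. VPZ-34A of ring 8 was low, with 0.652 CPM for Glyma.02G156800 against 15.3 to 20.6 and 0.733 CPM for Glyma.14G085600 against 7.70 to 9.91.

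WT at a[CO2] held the remaining 2 cases. The library of ring 1 gave 19.6 CPM for the oxidoreductase gene Glyma.19G008700 against 116 to 134 CPM, and the library of ring 4 gave 25.1 CPM for the GPT2 homologue Glyma.13G206700 against 41.0 to 44.6 CPM.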

How the results depend on the processing

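No count, fold change or variance turned its direction under an alternative, with the exception of the balance of the stage result, which was 87 higher and 59 lower in edgeR but 65 higher and 78 lower by limma-voom. Of the 200 genes 193 were chosen again with TMM scaling, 183 with a pseudocount of 2, 178 by the median of the group variances, 158 without the VPZ-34A library of ring 7 and 150 to 190 with 1 ring left out, but 120 with a CPM minimum of 1 and 59 with a minimum of 50. The shared part of variance stayed between 73.4% and 81.9% and the V4–V5 variance between 0.247 and 0.391. The ring test at V4–V5 called 93 members by DESeq2, 27 with no count filter, 0 with a term for line by CO2 and 0 to 3 with 1 ring left out, against 3. The ring 7 comparison called 10 by limma-voom, 49 by DESeq2, 36 with no count filter and 0 to 43 with 1 ring left out, against 22. DESeq2 called 1 member for line and 3 for CO2 at R5–R6, each against 0, and 16 for CO2 at V4–V5, against 5. With 1 ring left out CO2 called 0 to 17 at R5–R6 and 0 to 7 at V4–V5, and stage 132 to 155, against 146. With the ring as a block the line test called 0 at both stages and stage 157, and with ring as a random block CO2 called 0 at R5–R6 and 3 at V4–V5. The block changed no other count of calls. The cause of these differences was not tested.

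Few members passed for line or CO2 at R5–R6, where the spread that chose the genes is the error of the test. Each ring holds 1 library per line and stage, so that a ring cannot be told apart from what happened to its plots or its libraries, and fractional counting leaves genes with close copies uncertain. In the smallest library, of 16091207 counts, levels below 0.186 CPM are under the floor of 3 counts.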
